A study of Mus musculus with 6 samples.

Results

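The data concern 10 genes that mark brown and beige adipocytes: Ucp1, Cidea, Elovl3, Dio2, Cox7a1, Cox8b, Fabp3, Ebf2, Acot2 and Acot11. They were taken from an array table by their gene symbols. All 10 were measured, by 14 of the 22626 probe sets tested, and 12393 genes had a probe set of their own in the whole table. All mice were 8 weeks old, of mixed background (C57BL6 and 129), and had spent 4 days in the cold at 4 °C before white fat was taken for RNA. YY1aKO mice carried YY1flox/flox with Adiponectin Cre, a recombinase driven by a promoter active in adipocytes of white and brown fat, so that Yy1 is lost there, although the series title speaks of a loss specific to brown fat. Control mice carried YY1flox/flox, with no Cre named, and Cre itself and the loss of Yy1 cannot be told apart. There were 3 samples per group on 1-colour Affymetrix arrays, and separate mice are not stated, so the spread may be technical. The labels disagree on the depot, which the titles abbreviate as EWAT and the tissue field calls visceral, while other fields call it subcutaneous.

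Brown and beige adipocytes burn fuel to make heat. Cold acts on them through noradrenaline and cyclic AMP, which release fatty acids and raise the transcription of thermogenic genes. Ucp1 lets protons back through the inner mitochondrial membrane without making ATP, and the other markers serve fuel supply, the respiratory chain, thyroid hormone activation or the identity of the cells. White adipose depots differ in how readily they gain beige adipocytes, and visceral fat of mice usually gains few. YY1 binds DNA through zinc fingers and, depending on the gene, raises or lowers transcription.

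In the fat lacking Yy1, 3 of the 10 genes rose and none fell in limma at an adjusted p under 0.05. Ucp1 was 5.46-fold higher, Cidea 6.39-fold higher and Cox7a1 2.08-fold higher. For comparison, 6.92% of all 12393 genes were called higher and 4.04% lower. At an unadjusted limma p under 0.05, 7 of the 10 genes were higher and none lower, against 2096 and 1463 of all 12393 genes. Of the 14 probe sets 3 were called higher and none lower, against 6.54% and 3.66% of all probe sets. For 7 of the 10 genes (Ucp1, Cidea, Elovl3, Dio2, Cox7a1, Fabp3 and Acot2) every YY1aKO array read above every control array, which held for 22.4% of all genes, and for none was every YY1aKO array below, against 15.5% of all genes. With control 2 left out, again 3 genes were higher (14.5% of all genes) and none lower (11.5% of all genes), as were 3 of the 14 probe sets higher (13.9% of all) and 1 lower (10.6% of all). Groups then did not overlap for 7 genes that were higher (30.1% of all genes) and for 1 that was lower, Ebf2 (25.2% of all genes). The median difference of the 10 genes was 1.00 on the log2 scale, and that of all genes was 0.04. The 10 genes were chosen with earlier results of these data known, so setting them against all genes is description, not independent support. Each gene is represented by its brightest probe set, and differences are YY1aKO minus control.

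The brightest Yy1 probe set separated the groups, with intensities of 373, 323 and 315 in YY1aKO arrays 1 to 3, against 1785, 1846 and 1596 in controls 1 to 3 (log2 difference -2.37 ± 0.11 SE, limma adjusted p = 0.0034). The other Yy1 probe sets fell less. They differed by -1.21 and -1.03 without overlap (limma adjusted p = 0.0053 and 0.015), and by -0.06 with overlap (adjusted p = 0.67). Median intensities of the 6 arrays ran from 134 to 140.2. Control 2 stood apart, with correlations across probe sets of 0.928 to 0.955 with the other arrays. The YY1aKO arrays correlated with each other at 0.996. The 10 measured epididymis markers summed to 275 to 287 in YY1aKO, against 252, 115388 and 949 in controls 1 to 3. The 14 measured white adipocyte markers, among them Adipoq, Fabp4 and Lipe, summed to 101575 to 109377 in YY1aKO, against 124390, 73702 and 115950 in controls 1 to 3. The fat label thus had its defining markers on all arrays, with the lowest adipocyte sum in control 2, and results are also given without that array. Whole-tissue RNA cannot tell fewer cells of a type apart from less RNA per cell.

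**Figure D1:**
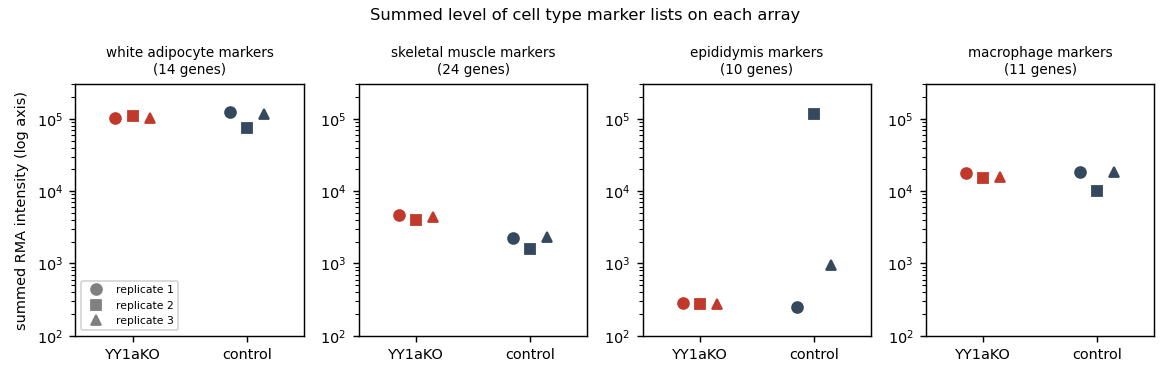
Summed RMA intensity of 4 marker lists (log axis) on each array, YY1aKO left and control right, with a symbol per replicate. Control 2 reads 115388 for the epididymis list and 73702 for the white adipocyte list, while the 3 YY1aKO arrays lie close together in each list.

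The RefSeq promoters (build GRCm38.p6) of the called genes Ucp1 and Cox7a1 are shown because they bear on whether a Yy1 motif lies next to a gene that moved. Those of Cox8b and Dio2, which did not pass, are set beside them. Each runs from 250 bases before to 50 bases after the transcription start, 5′ to 3′. Capitals mark every match, on either strand, to TATAAA (the TATA box), AGGTCA (a nuclear receptor motif), TGACG (the core of the cAMP response element TGACGTCA) or GCCAT (the core of the YY1 motif).
Ucp1, chr8:83290098-83290397, strand +: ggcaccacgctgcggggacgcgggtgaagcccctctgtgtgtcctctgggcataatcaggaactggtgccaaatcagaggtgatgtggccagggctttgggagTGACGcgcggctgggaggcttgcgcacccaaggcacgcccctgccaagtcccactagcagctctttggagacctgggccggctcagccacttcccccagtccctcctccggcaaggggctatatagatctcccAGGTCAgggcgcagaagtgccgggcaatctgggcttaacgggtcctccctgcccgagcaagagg
Cox7a1, chr7:30183921-30184220, strand +: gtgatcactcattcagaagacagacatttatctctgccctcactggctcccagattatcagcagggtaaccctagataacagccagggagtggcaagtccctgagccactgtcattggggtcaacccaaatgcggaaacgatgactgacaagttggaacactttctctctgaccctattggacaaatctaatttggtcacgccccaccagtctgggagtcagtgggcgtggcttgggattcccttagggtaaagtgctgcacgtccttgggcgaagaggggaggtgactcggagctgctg
Cox8b, chr7:140900397-140900696, strand -: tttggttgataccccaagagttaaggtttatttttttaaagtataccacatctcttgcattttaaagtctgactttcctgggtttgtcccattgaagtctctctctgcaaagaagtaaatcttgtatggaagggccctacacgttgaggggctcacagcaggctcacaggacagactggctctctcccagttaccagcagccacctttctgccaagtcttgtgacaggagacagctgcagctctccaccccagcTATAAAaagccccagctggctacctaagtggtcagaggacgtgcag
Dio2, chr12:90738989-90739288, strand -: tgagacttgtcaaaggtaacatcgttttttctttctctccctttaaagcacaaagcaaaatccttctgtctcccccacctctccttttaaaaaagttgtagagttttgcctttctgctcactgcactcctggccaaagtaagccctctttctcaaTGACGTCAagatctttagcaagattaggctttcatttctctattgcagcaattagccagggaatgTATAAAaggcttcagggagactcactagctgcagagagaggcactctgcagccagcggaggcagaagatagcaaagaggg

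Of the 10 genes, 7 had promoters in the RefSeq table that were searched, 8 between them. The search of marker promoters left out chromosome 18, where the called gene Cidea lies, so Cidea was not searched. Ebf2 and Elovl3 had no entry. The YY1 motif GCCATNTT, searched on both strands, was in 0 of the 8 and in 6.05% of the 32851 promoters of the table. Its core GCCAT was found in 1 of the 8, that of Fabp3, and in 40.5% of all. The full cAMP response element TGACGTCA occurred in 1 of the 8, that of Dio2, where it begins 95 bases before the start, and in 1.79% of all promoters. The shorter TGACG, which lies within it, was in 4 of the 8 (Ucp1, Fabp3, Acot2 and Dio2) and in 20.8% of all. AGGTCA was in 1 of the 8, that of Ucp1, and in 16.3% of all. TATAAA was in those of Cox8b and Dio2 and in 13.6% of all. It begins 30 bases before the start in Dio2, but 4 bases after the start in Cox8b. The Cox7a1 window held no match to any of these motifs. The share of G and C in the 8 promoters ran from 44.7% to 66.0%, with a median of 52.7% over all promoters. The motifs other than GCCATNTT were chosen with these sequences at hand, and a match or its absence in this window says nothing about binding.

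Ebf2 encodes a transcription factor that commits precursors to the brown and beige fate. Its brightest probe set read 276, 200.1 and 286 in YY1aKO arrays 1 to 3, against 411, 123 and 330.3 in controls 1 to 3. The YY1aKO values lay inside the control range, which was set by control 2 at its low end. The log2 difference was -0.02 ± 0.46 (SE, n = 3 per group, limma adjusted p = 0.98), with a 95% interval from -1.16 to 1.11. Without control 2 it was -0.55 ± 0.19 (adjusted p = 0.079).

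The other Ebf2 probe sets read 145, 83.0 and 144 in YY1aKO, against 244, 82.4 and 158 in controls, and 48.6, 39.6 and 54.1 in YY1aKO, against 109, 39.9 and 96.8 in controls. With all arrays their differences were -0.29 ± 0.44 and -0.67 ± 0.40 on the log2 scale, and neither passed (limma adjusted p = 0.72 and 0.33). Without control 2 they were -0.71 ± 0.30 (adjusted p = 0.14) and -1.12 ± 0.15 (adjusted p = 0.0050). The dimmest of the 3 Ebf2 probe sets was thus called lower when control 2 was left out, and the brighter ones were not. In that fit every measured marker of adipose progenitors (8), endothelium (9) and mesothelium (5) also had a negative difference, with medians of -0.41, -0.40 and -0.58. Of these markers 3, 2 and 2 were called lower. Of all 12393 genes, 5959 had a negative difference in that fit and 11.5% were called lower. The part of these cell types in the Ebf2 values was not tested. 

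Ucp1, the uncoupling protein that makes brown fat produce heat, read 118, 67.6 and 306 in YY1aKO arrays 1 to 3, against 24.7, 23.8 and 25.5 in controls 1 to 3. Every YY1aKO array lay above every control, and the highest YY1aKO reading was 4.53 times the lowest. The controls stood between the 18.4th and 19.4th percentile of all probe sets of their arrays, and the YY1aKO arrays between the 37.6th and 65.5th. The log2 difference was 2.45 ± 0.53 (SE, limma adjusted p = 0.041), with a 95% interval from 1.16 to 3.74.

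The size of the Ucp1 difference was much the same without control 2 (2.42 ± 0.58, limma adjusted p = 0.030). It was 1.86 without YY1aKO 3 and 2.94 without YY1aKO 2. The call was lost without YY1aKO 1, 2 or 3 (limma adjusted p = 0.12, 0.069 and 0.067) and without control 1 or 3 (adjusted p = 0.075 and 0.12). It was also lost on the log2(intensity + 32) scale, which lowers the weight of dim readings, with a difference of 1.60 (adjusted p = 0.085).

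Cidea encodes a lipid droplet protein that enlarges droplets and is abundant in brown fat. It read 580, 676 and 845 in YY1aKO arrays, against 199.8, 63.8 and 99.4 in controls. The groups did not overlap, and the SD on the log2 scale was 0.27 in YY1aKO and 0.83 in controls. On the log2 scale it was higher by 2.68 ± 0.42 (SE, limma adjusted p = 0.019), with a 95% interval from 1.65 to 3.70. Without control 2, the lowest control, it was 2.30 ± 0.31 (adjusted p = 0.0052). With each array left out in turn it ran from 2.30 to 3.12, and the call was lost without YY1aKO 1, 2 or 3 and without control 3 (limma adjusted p = 0.073, 0.094, 0.099 and 0.077).

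**Figure D2:**
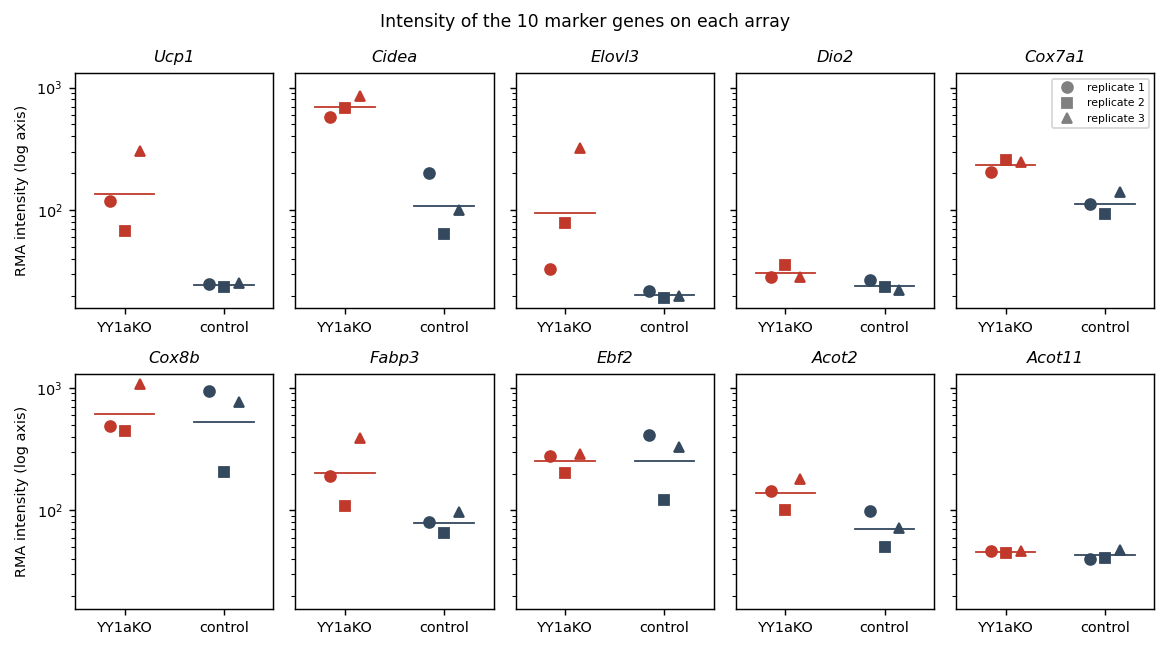
RMA intensity (log axis) of the 10 marker genes on each array, YY1aKO left and control right, 1 probe set per gene, with a symbol per replicate and a bar at the geometric mean of each group. Ucp1 and Elovl3 are spread widely in YY1aKO and tightly in controls, while Cidea, Cox8b and Ebf2 are spread more in controls, where control 2 is the lowest.

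Elovl3 is an enzyme that lengthens fatty acids and is induced by cold in brown fat. It read 32.9, 78.7 and 321 in YY1aKO, against 21.7, 19.3 and 19.9 in controls. All YY1aKO arrays were higher, but they ranged over 9.74 times, with an SD of 1.66 on the log2 scale against 0.09 in controls. The difference of 2.21 ± 0.79 did not pass (SE, limma adjusted p = 0.14), and its 95% interval ran from 0.29 to 4.14. Without YY1aKO 3 it was 1.33, and without YY1aKO 1 it was 2.97.

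Fabp3, which carries fatty acids in the cytosol of heart, muscle and brown fat, read 189, 108 and 393 in YY1aKO, against 79.7, 65.0 and 97.4 in controls. The groups did not overlap, with YY1aKO 2 nearest to the controls. The difference of 1.33 ± 0.47 on the log2 scale did not pass (limma adjusted p = 0.13, 95% interval from 0.19 to 2.47), nor did that of 1.19 ± 0.50 without control 2 (adjusted p = 0.14).

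Acot2 is a mitochondrial thioesterase that splits fatty acyl-CoA into fatty acid and CoA. It read 145, 100.1 and 179 in YY1aKO, against 99.4, 50.5 and 71.6 in controls. The groups did not overlap, although YY1aKO 2 and control 1 were nearly equal. On the log2 scale it differed by 0.95 ± 0.31 (SE, limma adjusted p = 0.11), and 0.71 ± 0.26 without control 2 (adjusted p = 0.11).

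Acot1 is a near-identical neighbour of Acot2. A further probe set is annotated to both genes, is not counted among the 14, and read 154, 105 and 172 in YY1aKO, against 122, 299 and 219 in controls. Its difference was -0.50 ± 0.36 (limma adjusted p = 0.43). The probe set of Acot1 alone read 49.0, 42.1 and 54.3 in YY1aKO, against 58.5, 425 and 215 in controls (-1.86 ± 0.70, adjusted p = 0.15, and -2.65 with adjusted p = 0.021 without control 1). Its highest readings were in controls 2 and 3, the arrays with the highest sums of epididymis markers. How far the Acot2 and Acot1 probes share signal was not tested.

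Acot11, a thioesterase first described as induced by cold in brown fat, read 46.3, 44.9 and 46.2 in YY1aKO, against 40.2, 41.0 and 47.8 in controls. The groups overlapped, between the 27.9th and 30.8th percentile of the arrays. The log2 difference was 0.10 ± 0.10 (limma adjusted p = 0.58), with a 95% interval from -0.15 to 0.34.

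Dio2 converts thyroxine to the active thyroid hormone inside the cell and is induced by cyclic AMP. Its brightest probe set read 28.4, 35.5 and 28.4 in YY1aKO, against 27.0, 23.5 and 22.2 in controls. The groups did not overlap, but the gap between YY1aKO 1 and control 1 was small. The difference was 0.34 ± 0.13 on the log2 scale (limma adjusted p = 0.17). The other Dio2 probe sets differed by 0.00 ± 0.09 and 0.02 ± 0.13 (adjusted p = 0.998 and 0.92). All 3 read between 18.2 and 35.5 on all arrays, from the 12.8th to the 25.8th percentile.

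Cox7a1 and Cox8b encode the heart and muscle forms of subunits of cytochrome c oxidase, complex IV of the respiratory chain, and both forms are also made in brown fat. Cox7a1 read 204, 258 and 246 in YY1aKO, against 112, 92.5 and 139.5 in controls. All YY1aKO arrays were higher and lay close together, with an SD of 0.18 on the log2 scale, against 0.30 in controls. Its log2 difference was 1.05 ± 0.18 (SE, limma adjusted p = 0.023), with a 95% interval from 0.62 to 1.49.

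Without control 2 the Cox7a1 difference was 0.91 ± 0.15 (limma adjusted p = 0.0088), and with each array left out in turn it ran from 0.91 to 1.21. The call was lost without YY1aKO 1, 2 or 3 (limma adjusted p = 0.070, 0.11 and 0.11) and without control 3 (adjusted p = 0.052).

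Cox8b read 490.3, 448 and 1071 in YY1aKO, against 942, 206 and 767 in controls. The groups overlapped, with YY1aKO 3 the highest array and control 2 the lowest. The log2 difference was 0.22 ± 0.65 (limma adjusted p = 0.86), with a 95% interval from -1.38 to 1.82. It was -0.46 ± 0.38 without control 2 (adjusted p = 0.43) and -0.18 without YY1aKO 3. The direction of Cox8b therefore turned on a single array.

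**Figure D3:**
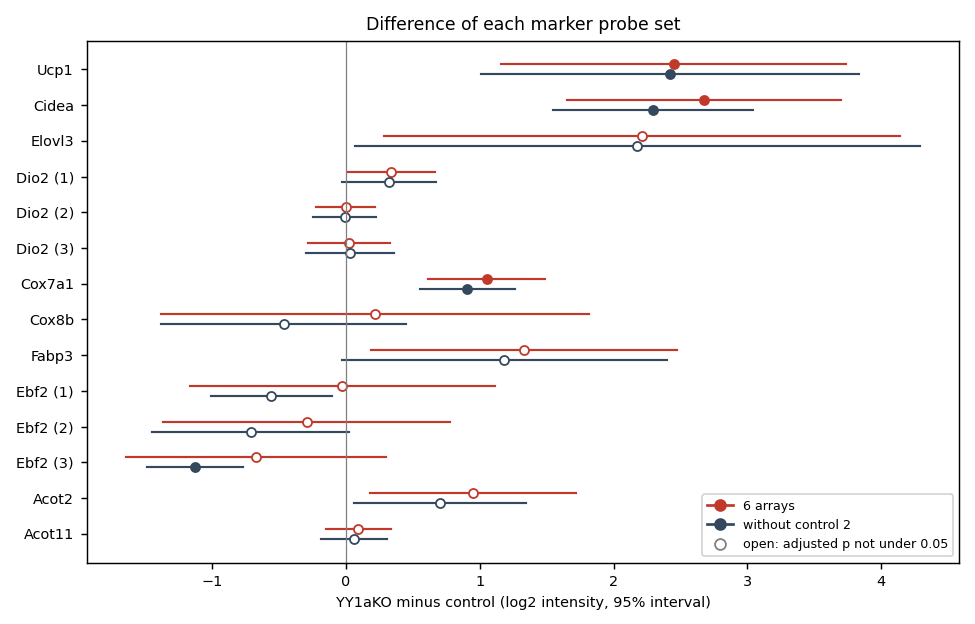
Log2 difference, YY1aKO minus control, of the 14 marker probe sets with 95% intervals from limma, for all 6 arrays and without control 2. Probe sets of Dio2 and Ebf2 are numbered from the brightest. Ucp1, Cidea and Cox7a1 are called in both fits, and Ebf2 (3) in the fit without control 2 at -1.12.

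YY1aKO 3 gave the highest YY1aKO reading for 7 of the 10 genes and the lowest for none. Control 2 gave the lowest control reading for 8 of them. Over the 6 arrays Ucp1 followed Fabp3 (Pearson r = 0.96), Elovl3 (0.89), Acot2 (0.88) and Cidea (0.87) on the log2 scale, while Ebf2 followed Cox8b (0.91) and stayed at 0.11 with Ucp1. These correlations describe 6 arrays that also differ in group and in the low adipocyte sum of control 2.

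By the same measure, among 1353 genes at least as bright as the median probe set and with an SD of at least 0.5 on the log2 scale, the 5 closest to Ucp1 were Ero1a (r = 0.985), an oxidase of the endoplasmic reticulum, Pck2 (0.980), a mitochondrial enzyme that makes phosphoenolpyruvate, Trib3 (0.960), a pseudokinase induced by cell stress, Ttc17 (0.958) and Clstn3 (0.953). Pck2 read 912, 590 and 1111 in YY1aKO, against 433, 370.3 and 379 in controls, so that YY1aKO 3 was again the highest and YY1aKO 2 the lowest YY1aKO array. Trib3 read 1248, 421 and 1354 in YY1aKO, against 124, 90.0 and 107.5 in controls. The 5 closest to Cidea were Gsdme (0.996), a gasdermin, Twist2 (0.996), a transcription factor of mesenchymal cells, Nmnat1 (0.996), a nuclear enzyme that makes NAD, Lonp1 (0.995), the protease of the mitochondrial matrix, and Pex14 (0.994), a peroxisomal import protein. Twist2 read 417, 439 and 526 in YY1aKO, against 189.6, 103 and 149 in controls.

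The related lists hold activators and repressors of thermogenesis, cold effectors, subset markers, paralogues of the markers and complex IV subunits. Such a pool need not move one way, and its counts are no measure of thermogenesis. With 6 arrays 6.92% of all 12393 genes were called higher and 4.04% lower. At an unadjusted limma p under 0.05, 2096 of all genes were higher and 1463 lower. Each list count below stands beside these figures. Of 122 measured genes in 6 lists, 9 were called higher and 4 lower, shares near those of all genes, and their median log2 difference was 0.06. Leaving out control 2 gave 13 higher and 19 lower, where 14.5% and 11.5% of all genes were called. Without YY1aKO 2 or 3 none of them was called, without YY1aKO 1 only 1 and without control 3 only 2, in the limma fit at an adjusted p under 0.05. Few probe sets of any kind were called in those fits, in turn 18, 28, 127 and 259 of all 22626.

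Among 19 measured activators of the thermogenic programme 1 was higher and 1 lower. Ppargc1a, the coactivator PGC-1α that raises mitochondrial and thermogenic genes, read 22.3, 15.3 and 35.0 in YY1aKO, against 163, 134 and 242 in controls, a difference of -2.93 ± 0.36 (limma adjusted p = 0.012). That is the brightest of 5 Ppargc1a probe sets, and the others are not given here. Its YY1aKO readings lay between the 9.9th and 25.5th percentile of their arrays, near the low end. On this probe set Ppargc1a was thus lower while Ucp1, one of its known targets, was higher. Med1, a Mediator subunit that binds nuclear receptors, differed by 0.53 ± 0.12 on the brightest of its 6 probe sets (limma adjusted p = 0.049). That call was lost after quantile normalization again (limma adjusted p = 0.060), with a mean-variance trend and robust prior (0.057) and with a replicate block (0.14). Of 9 measured repressors 1 was lower and none higher in limma, with 2 lower and 0 higher at an unadjusted p under 0.05. Nrip1, a corepressor that holds Ucp1 and Cidea down in white fat, read 1150, 979 and 985 in YY1aKO, against 2148, 2055 and 2440 in controls (-1.09 ± 0.11, adjusted p = 0.00996). Leaving out YY1aKO 2 or 3 ended the calls of Ppargc1a, Med1 and Nrip1, leaving out YY1aKO 1 or control 3 those of Ppargc1a and Med1, and leaving out control 1 that of Med1 (highest limma adjusted p of 0.066, 0.17 and 0.068 in turn).

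Of 38 measured effectors of the cold response, 4 were higher and 2 lower. Gpd1, which makes glycerol 3-phosphate, read 8839, 12729 and 9910 in YY1aKO, against 3155, 1202 and 2850 in controls (2.23 ± 0.39, limma adjusted p = 0.024). Clstn3, whose short form acts on lipid droplets of brown fat, differed by 1.67 ± 0.25 (adjusted p = 0.017), and Acaa2, an enzyme of fatty acid oxidation, by 0.68 ± 0.12 (adjusted p = 0.027). Plin5, which ties lipid droplets to mitochondria, read 76.5, 73.7 and 71.9 in YY1aKO, against 279, 139 and 174 in controls (-1.35 ± 0.25, adjusted p = 0.029). The remaining calls, named after their values were seen, were the hormone Fgf21, higher by 1.99 ± 0.39 (adjusted p = 0.032), and the creatine kinase Ckb, lower at -1.603 ± 0.324 (adjusted p = 0.035). The calls of Gpd1, Clstn3, Acaa2 and Plin5 were lost without each YY1aKO array and without control 3 (limma adjusted p up to 0.12), as were those of Fgf21 and Ckb (up to 0.14), and Fgf21 was also lost without control 1 (0.065) and on the log2(intensity + 32) scale (1.33, adjusted p = 0.061). Its controls lay between the 22.0th and 26.1st percentile of their arrays.

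Of 15 measured genes listed as markers that separate classical brown from beige adipocytes, none passed limma with 6 arrays. Among them 2 had an unadjusted p under 0.05, Mpzl2 and Eva1a. These are separate genes despite the likeness of Eva1a to an older name of Mpzl2, and whether Eva1a marks brown fat was not tested. Zic1, a mark of classical brown fat, read 9.0 to 9.3 in YY1aKO and 8.9 to 9.7 in controls, and Tbx1, a mark of beige cells, 24.4 to 28.5 in YY1aKO and 22.2 to 31.6 in controls. Mpzl2 and Eva1a differed by -2.20 ± 0.68 and -1.75 ± 0.55 (limma adjusted p = 0.098 and 0.10). Both Mpzl2 and Eva1a read highest in controls 2 and 3, where the sums of epididymis markers were also highest. Mpzl2 read 68.7, 53.3 and 50.1 in YY1aKO, against 100.3, 707 and 253 in controls, and was called without control 2 (-1.49, adjusted p = 0.035) or control 1 (-2.89, adjusted p = 0.030). Eva1a was called without control 1 (-2.38, adjusted p = 0.017).

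**Figure D4:**
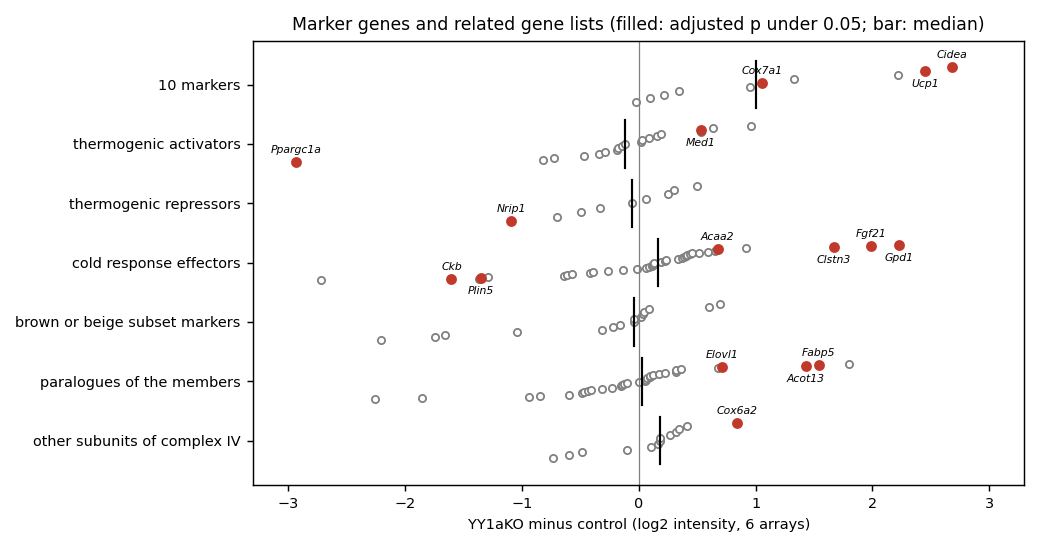
Log2 difference, YY1aKO minus control, of the 10 marker genes and of 6 related lists over 6 arrays, 1 point per gene, filled where the limma adjusted p is under 0.05, with a bar at each median. The medians of the 6 lists lie between -0.11 and 0.18, and that of the 10 markers at 1.00. Markers and lists were chosen with earlier results of these data known.

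Relatives of the markers gave a mixed picture. Of 32 measured paralogues 3 were higher and none lower in limma, with 5 higher and 3 lower at an unadjusted p under 0.05. Without control 2, 6 were higher (14.5% of all genes) and 4 lower (11.5% of all genes). Fabp5, the epidermal form of the fatty acid carriers, read 18718, 19153 and 19248 in YY1aKO, against 10032, 3957 and 7073 in controls (1.54 ± 0.33, limma adjusted p = 0.040, and 1.18 without control 2). Acot13 differed by 1.43 ± 0.13 (adjusted p = 0.0088) and Elovl1 by 0.71 ± 0.14 (adjusted p = 0.032). Fabp4, the adipocyte form, was near the top of the scale at 29424 to 30322 in YY1aKO and 24527 to 29128 in controls (0.13 ± 0.10, adjusted p = 0.47). Each of the 3 calls was lost without any single YY1aKO array, and those of Fabp5 and Elovl1 also without control 3 (limma adjusted p up to 0.15).

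The ubiquitous paralogues of the complex IV markers Cox7a1 and Cox8b were Cox7a2 and Cox8a. Cox7a2 read 10218 to 11831 in YY1aKO and 8733 to 9176 in controls (0.32 ± 0.09, limma adjusted p = 0.081). Cox8a read 4715 to 5383 in YY1aKO and 6369 to 8006 in controls (-0.49 ± 0.12, limma adjusted p = 0.054). Of 13 other measured subunits of complex IV, 1 was higher and none lower in limma, with 4 higher and 2 lower at an unadjusted p under 0.05, and 2 higher and 2 lower called without control 2. The one called with 6 arrays was Cox6a2, the heart and muscle form of another subunit, with 176, 135 and 199.9 in YY1aKO, against 90.0, 88.5 and 104.5 in controls (0.84 ± 0.17, adjusted p = 0.034). Its call was lost without each array other than control 2 (limma adjusted p up to 0.12). Cidec, the white fat relative of Cidea, differed by 0.09 ± 0.34 (adjusted p = 0.89), and by -0.30 without control 2. Elovl6 differed by 1.80 ± 0.99 (adjusted p = 0.30), and by 2.95 (adjusted p = 0.0040) without control 2, where it read 3089, against 255 and 314 in controls 1 and 3. Elovl5 (0.68 ± 0.16, adjusted p = 0.056) passed without control 2 (0.51, adjusted p = 0.017). With all 6 arrays Ucp3 (-0.23), Ebf1 (0.22), Ebf3 (-0.31), Dio1 (-0.84) and Acot12 (-0.15) did not pass. Without control 2 Ucp3 (-0.71, limma adjusted p = 0.015), Ebf3 (-0.77, adjusted p = 0.025) and Cox8a (-0.58, adjusted p = 0.011) were called lower, and Dio1 was without control 1 (-1.24, adjusted p = 0.037). Ucp2 was not analysed here, since it had no probe set of its own.

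Skeletal muscle also expresses Cox7a1, Cox8b, Fabp3 and Cox6a2, so its markers were read beside them. The 24 measured muscle markers summed to 4050.1 to 4700.3 in YY1aKO and 1600.4 to 2318 in controls, a sum that weights bright genes most. On the log2 scale 14 of them had a positive and 10 a negative difference. Their median was 0.04, as was that of all genes. Of the 24 muscle markers 3 were called higher in limma (6.92% of all genes) and none lower (4.04% of all genes). Those called were Cox6a2, the skeletal actin Acta1 and the troponin Tnnc2. At an unadjusted limma p under 0.05, 5 were higher and 2 lower. Without control 2, 5 muscle markers were called higher (14.5% of all genes) and 1 lower (11.5% of all genes). Acta1 read 1945, 1107 and 1942 in YY1aKO, against 178, 110 and 171 in controls (3.43 ± 0.30, limma adjusted p = 0.0081, and 0.062 without YY1aKO 3). Tnnc2 differed by 2.48 ± 0.31 (adjusted p = 0.013), a call lost without each YY1aKO array and without control 3 (limma adjusted p up to 0.067). Among the other muscle markers Ckm, Myh1 and Myh4, picked after their values were seen, read low in both groups. Myh4 was still higher on every YY1aKO array than on any control. Ckm read 62.5 to 72.7 in YY1aKO and 60.3 to 68.5 in controls, Myh1 13.7 to 15.3 in YY1aKO and 14.2 to 16.1 in controls, and Myh4 13.9 to 15.3 in YY1aKO and 11.6 to 12.3 in controls. The part of muscle RNA in the values of Cox7a1, Cox8b and Fabp3 was not tested. No marker of macrophages (11 measured), endothelium (9), lymphocytes (8), mesothelium (5), adipose progenitors (8) or epididymis (10) passed limma with 6 arrays, and at an unadjusted p under 0.05 there were 2, both of progenitors and lower. Without control 2, 2 of the endothelial, 2 of the mesothelial and 3 of the progenitor markers were called lower (11.5% of all genes). None of the macrophage, lymphocyte or epididymis markers passed in that fit. Summed macrophage markers read 15122 to 18136 in YY1aKO, against 18202, 10006 and 18176 in controls 1 to 3.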

How the data were processed

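White adipose RNA of 3 YY1aKO and 3 control samples was hybridised to 1-colour Affymetrix arrays. The authors deposited an intensity for each probe set on each array, obtained by RMA according to the submitters' processing notes, with no version. The deposited intensities run from 6.09 to 30322, so they are linear although RMA gives log2 values, and that step is not given in the sources used here. RMA gives arrays like distributions, which removes changes shared by most genes. Without detection calls, the background in dim readings is unknown. The number of arrays limits the precision.

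After 64 array controls were left out, the log2 of 22626 probe sets was tested with limma 3.58.1 in R 4.3.3 (lmFit, eBayes, two-sided, Benjamini-Hochberg over all probe sets, threshold 0.05), with no brightness filter. The platform annotation gave 20380 of them a single symbol, 691 several and 1555 none, and 20351 matched the reference gene table by Entrez ID. A gene stands as its brightest single-symbol probe set. Further single-symbol probe sets of genes other than the 10 markers and Yy1 are not given here. Scripts were tested on simulated data.

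The members and lists were chosen with earlier results of these data known. Named were all member probe sets, up to 4 called genes per list with groups that did not overlap (2 where none passed), the closest paralogues, and the 5 genes most like Ucp1 and Cidea. Acta1, Tnnc2, Ckm, Myh1, Myh4, Zic1, Tbx1 and the white fat markers were named after their values were seen. Alternatives were a filter to the 60% brightest probe sets, quantile normalization again, equal medians, log2(intensity + 32), array weights, a mean-variance trend with robust prior, a replicate block, other ways to combine probe sets, other thresholds and each array left out. Promoter sequences are from RefSeq.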

Additional observations from a re-analysis of the deposited data

How the results depend on the processing

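With each array left out in turn, the count of called member genes ran from 0 to 3, of member probe sets from 0 to 4, of all probe sets from 18 to 5532 and of the other pathway genes from 0 to 32. The member gene count was 2 without control 1, 3 without control 2, and 0 without control 3 or any YY1aKO array. Without control 3 or YY1aKO 1, 2 or 3, in turn 259, 127, 18 and 28 of all probe sets were called. With array weights, whose estimate did not reach its convergence tolerance, these 4 counts were 6, 7, 9395 and 55, and at an adjusted p under 0.01 no member gene was called. Same-numbered samples did not deviate together (r = -0.10, -0.08 and -0.10). With 3 arrays per group and control 2 far from the rest, these values cannot settle whether the numbers pair the samples. The fit with the replicate block called 0 member genes, 0 member probe sets, 16 probe sets and 1 other pathway gene. Elsewhere the member count was 2 or 3 of 10, with 6 genes tested under the brightness filter. Yy1 kept its direction and call in all 13 alternatives run. Direction turned for Cox8b (-0.33 with array weights, and -0.46 to 0.64 over the left-out arrays), Ebf2 (0.0020 after quantile normalization again, 0.014 with equal medians, and -0.55 to 0.32), Acot11 (-0.038 with array weights), Cidec (-0.11 with array weights, and -0.30 to 0.39), Ebf1 (-0.25 with array weights, and -0.27 to 0.48), Ucp3 (-0.71 to 0.11) and Ebf3 (-0.77 to 0.043), none of them called with all 6 arrays, and the cause was not tested. Ucp1, Elovl3, Dio2 and Fgf21 in controls, and Ppargc1a in YY1aKO, read near the low end of the arrays, which limits what their fold changes can show.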

Other observations

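Of 14 measured white adipocyte markers 1 was higher (6.92% of all genes) and 2 were lower (4.04% of all genes) in YY1aKO. Agt, which encodes angiotensinogen, read 262, 180 and 315 in YY1aKO arrays 1 to 3, against 2147, 1011 and 1580 in controls 1 to 3 (log2 difference -2.62 ± 0.33, limma adjusted p = 0.013). The depot-related homeobox gene Hoxc9 differed by 0.75 ± 0.16 (adjusted p = 0.037) and Tcf21, a transcription factor of visceral fat, by -0.63 ± 0.14 (adjusted p = 0.046). The 3 calls held without control 1 or control 2 and were lost without each other array (limma adjusted p up to 0.17), and that of Tcf21 also after quantile normalization again (0.055). Without control 2, 1 of the 14 was higher (14.5% of all genes) and 3 were lower (11.5% of all genes).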
